A study of Saccharomyces cerevisiae with 12 samples.

Results

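The genes described here are the autophagy-related (*ATG*) genes of *Saccharomyces cerevisiae*, taken as every row of the expression table whose gene name is ATG followed by a number. This rule found 28 of 7126 rows, and all 28 passed the filter on low values, a mean of at least 1 FPKM over the 12 libraries (FPKM, fragments counted on a gene after scaling for transcript length and library size). The rule used names alone and no measured value. A further 9 genes carry an *ATG* symbol in the R64 reference annotation but another name in the table, so they are not members and are described separately.

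Autophagy encloses cytoplasm, organelles or protein assemblies in a double-membrane vesicle that fuses with the vacuole, where the contents are broken down. In growing yeast the TORC1 kinase keeps the process low, and rapamycin, a macrolide that inhibits TORC1, switches it on. A core machinery builds the vesicle whatever its cargo, while receptors such as Atg32 tie a chosen cargo to Atg8 on the growing membrane.

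RNA was sequenced from an *RRD1* knockout and from its wild type, each with and without rapamycin, 3 libraries in each of the 4 groups. *RRD1* encodes a peptidyl-prolyl isomerase that activates PP2A-type phosphatases and takes part in the response to rapamycin, and the comparison asks which transcripts depend on it. The 4 groups were the *RRD1* KO strain YSC6273-201925697 with rapamycin, the wild-type strain BY4730 with rapamycin, the *RRD1* KO without rapamycin and the wild type without rapamycin. All cultures grew in YPD to log phase, and treated cultures received 100 nM rapamycin for 50 min. The knockout is 1 strain from a commercial collection, so a difference between strains cannot be told apart from any other difference between these 2 strains. The labels state repeats on different days without tying a library to a day, and p-values measure the spread between these libraries.

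*RRD1* was listed at 0 to 0.203 FPKM in the 6 KO libraries and at 47.5 to 85.3 FPKM in the 6 wild-type libraries. *URA3*, *LEU2* and *MET17* were listed at 0 in all 12 libraries, and *HIS3* and *LYS2* were detected in all 12. *HIS3* was lower in the KO under rapamycin (log2 fold change -0.88, limma adjusted p = 0.00523). Without rapamycin it was not called (-0.44, limma adjusted p = 0.216), and *LYS2* was called in neither treatment. Both strains expressed *MFA1* and *STE2*, genes of the MATa mating type. KO libraries 1 (without rapamycin) and 2 (with rapamycin) stood apart from the other KO libraries in *MFA1* and *STE2*. Over all tested features their Spearman correlations with the other KO libraries of the same treatment were 0.9675 to 0.9761, against 0.9745 and 0.9763 between those others. *MFA1* was at 198900 and 320700 FPKM in KO libraries 1 and 2, against 67170 to 131500 FPKM in the other 4 KO libraries and 202300 to 629200 FPKM in the wild type. *STE2* was at 882 and 1363 FPKM in the same 2 libraries, against 530.5 to 624 FPKM in the other KO libraries. The counts of members called are therefore also given without these libraries, an alternative chosen after the data were seen. The depth implied by the steps between low FPKM values was approximately 8440000 to 11774000 reads per library.

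Rapamycin was followed by higher levels of nearly the whole *ATG* set in both strains. In the KO, 24 of 28 members rose and none fell, and in the wild type 25 rose and none fell (limma on log2(FPKM + 1), Benjamini-Hochberg adjusted p under 0.01). Of all 6497 features tested, 36.4% rose in the KO and 35.9% rose in the wild type. The median log2 fold change of the 28 members was 1.19 in the KO and 1.25 in the wild type, against 0.34 and 0.29 over all features in the KO and the wild type. In RNA from a whole culture, more RNA per cell and more cells that express a gene cannot be told apart.

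**Figure D1:**
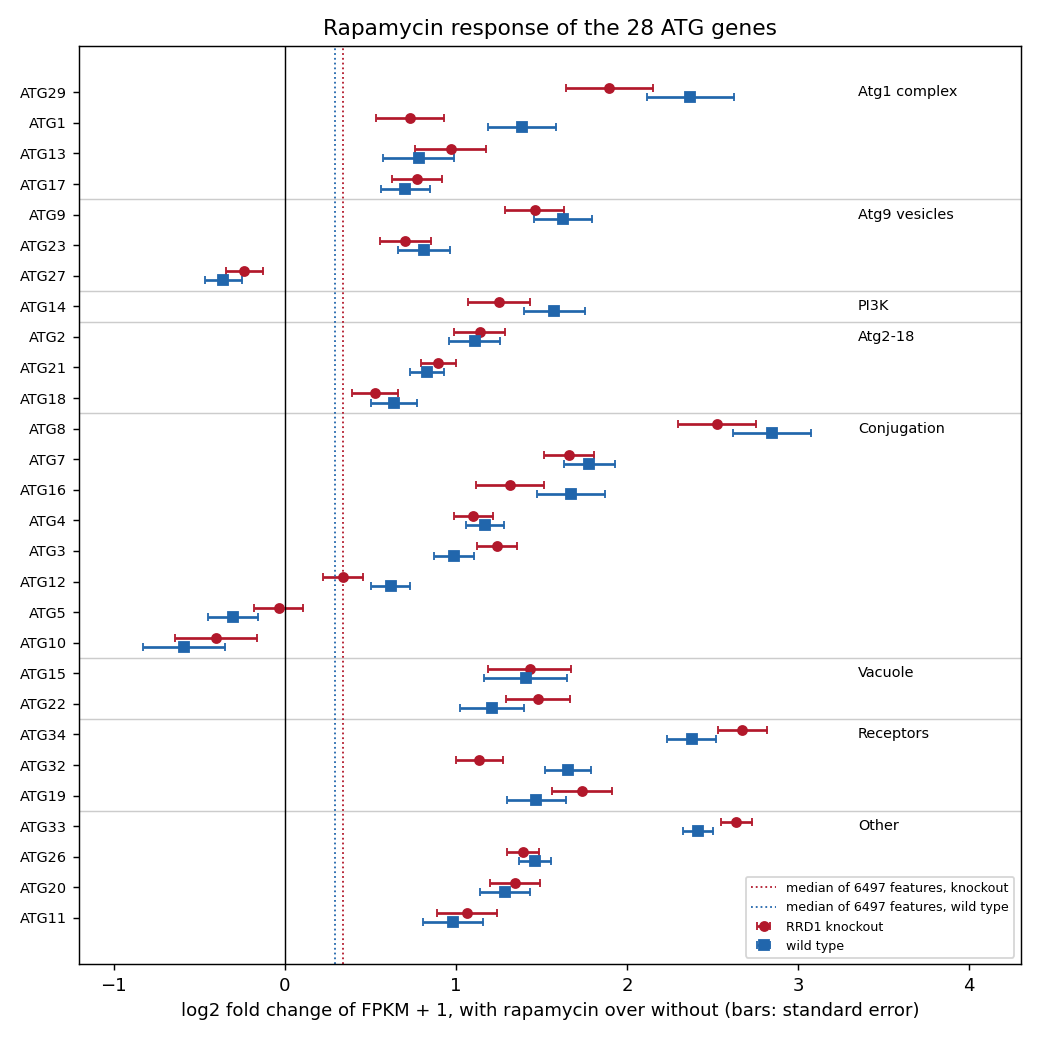
The log2 fold change of FPKM + 1 with rapamycin over without is shown for each of the 28 *ATG* genes, in the *RRD1* KO (red circles) and in the wild type (blue squares), with bars for the standard error and genes grouped by role. Dotted lines mark the medians over all 6497 features, 0.34 in the KO and 0.29 in the wild type, and *ATG5*, *ATG10* and *ATG27* are the genes left of 0 in both strains.

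*ATG8* had the highest level of the set in every treated group and the largest rise in the wild type. It encodes the ubiquitin-like protein that is attached to phosphatidylethanolamine and sets the size of the vesicle. With rapamycin, *ATG8* was at 349, 418 and 499 FPKM in KO libraries and at 618, 483 and 583 FPKM in wild-type libraries. Without rapamycin it was at 66.2, 56.9 and 97.3 FPKM in KO libraries and at 73.9, 60.5 and 101 FPKM in wild-type libraries. All treated libraries lay above all untreated ones in both strains, while the ranges of the 2 strains overlapped with and without the drug. The log2 fold change with rapamycin was 2.53 in the KO (SE 0.228, adjusted p = 4.53e-06) and 2.85 in the wild type (SE 0.228, adjusted p = 9.78e-07).

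*ATG33* and *ATG34* followed *ATG8* in the wild type and had larger rises than *ATG8* in the KO. *ATG33*, which encodes an outer mitochondrial membrane protein needed for mitophagy, was at 208, 195 and 195 FPKM in treated KO libraries and at 33.6, 29.2 and 30.8 FPKM in untreated KO libraries. *ATG33* was at 309, 306 and 295 FPKM in treated wild-type libraries and at 52.3, 54.6 and 61.5 FPKM in untreated ones. Its replicates lay close together, and its rise of 2.64 on the log2 scale in the KO (SE 0.0899, adjusted p = 7.61e-09) and 2.42 in the wild type (SE 0.0899, adjusted p = 5.18e-09) had the smallest standard error of the set. *ATG34*, a paralog of *ATG19* whose product carries alpha-mannosidase to the vacuole during starvation, was at 61.6, 47.7 and 54.8 FPKM in treated KO libraries, against 7.67, 7.51 and 7.87 FPKM in untreated KO libraries. *ATG34* was at 78.4, 83.8 and 79.5 FPKM in treated wild-type libraries, against 12.3, 13.7 and 18.8 FPKM in untreated ones. It had the largest log2 fold change of the set in the KO, 2.67 (SE 0.143), and reached 2.38 in the wild type (SE 0.143).

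The 6 largest rises of each strain also took in *ATG29* and *ATG7* in both strains, *ATG19* in the KO and *ATG16* in the wild type. *ATG29* encodes a subunit of the Atg17 scaffold complex. It was at 49.2, 38.4 and 58.1 FPKM in treated KO libraries, against 11.7, 9.34 and 16.3 FPKM in untreated KO libraries, and at 66.0, 107 and 91.9 FPKM in treated wild-type libraries, against 12.7, 14.7 and 21.6 FPKM in untreated ones. Treated and untreated ranges of *ATG29* were far apart, with log2 fold changes of 1.90 in the KO and 2.37 in the wild type (SE 0.254 each). The reading frame of *ATG29* overlaps *YPL165C* on the other strand in R64, and since use of strand in the counting is not stated, reads of the 2 genes cannot be told apart. *ATG7*, the activating enzyme shared by Atg8 and Atg12, rose by 1.66 in the KO and 1.78 in the wild type on the log2 scale (SE 0.148 each). *ATG16*, which dimerizes the Atg12-Atg5 conjugate, was at 31.9, 24.0 and 27.6 FPKM in treated KO libraries, against 9.23, 9.21 and 13.6 FPKM in untreated KO libraries. Wild-type libraries had 43.4, 56.0 and 42.8 FPKM of *ATG16* with rapamycin, against 10.6, 16.0 and 16.4 FPKM without. It rose by 1.32 in the KO and 1.67 in the wild type on the log2 scale (SE 0.199 each), and the lowest number of reads implied for any of its values was 23.

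Short stretches upstream of the genes with the largest rises and of *ATG32* are printed because they hold words known as binding sites of factors under TORC1 or nutrient control. Capitals mark matches on either strand to 3 words. GATAAG, which reads CTTATC on the opposite strand, is the word of the GATA factors Gln3 and Gat1. AGGGG, which reads CCCCT on the opposite strand, is the stress response element, and GGCGGC is the core of the Ume6 site. The sequences are from the RefSeq R64 assembly, on the strand of each gene, and lie between 340 and 51 bases before the start codon. The *ATG8* stretch is chrII:80782-80881, minus strand, the *ATG33* stretch chrXII:839981-840040, plus strand, and the *ATG34* stretch chrXV:165494-165563, plus strand. The *ATG29* stretch is chrXVI:237228-237287, plus strand, and the *ATG32* stretch chrIX:75824-75883, minus strand.
ATG8: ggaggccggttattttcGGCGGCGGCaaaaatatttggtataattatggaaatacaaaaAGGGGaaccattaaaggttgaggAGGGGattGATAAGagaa
ATG33: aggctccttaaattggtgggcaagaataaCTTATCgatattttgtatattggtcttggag
ATG34: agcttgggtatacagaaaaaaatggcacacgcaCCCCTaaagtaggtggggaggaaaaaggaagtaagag
ATG29: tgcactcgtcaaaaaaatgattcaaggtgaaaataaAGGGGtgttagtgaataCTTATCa
ATG32: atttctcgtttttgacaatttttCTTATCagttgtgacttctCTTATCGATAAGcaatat

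The *ATG8* stretch holds all 3 words, with GGCGGC in 2 overlapping copies, and the *ATG32* stretch holds 3 copies of the GATAAG word, 2 of them back to back on opposite strands. Over the 500 bases before the start codon, GATAAG was found for 11 of 28 members (39.3%), against 22.7% of 6019 genes. AGGGG was found for 15 members (53.6%), against 34.0% of genes, and GGCGGC for 2 members (7.14%), *ATG8* and *ATG19*, against 9.54%. *ATG7*, among the 6 largest rises in both strains, and *ATG16*, among them in the wild type, held none of the 3 words in that window. A match is a description of the letters and not a bound site.

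Most of the 16 core genes and all 3 receptors rose. Of the core, 13 rose in the KO and 14 in the wild type, with median log2 fold changes of 1.12 in the KO and 1.14 in the wild type. The receptors rose in both strains, with medians of 1.74 in the KO and 1.66 in the wild type, the values of *ATG19* and *ATG32*. These are only the receptors that the name rule took in. The receptors *ATG36*, *ATG39* and *ATG40*, listed under other names and given below, had lower log2 fold changes than these medians in both strains. The median FPKM over the core was 38.3, 33.8 and 35.4 in treated KO libraries and 45.7, 47.0 and 43.8 in treated wild-type libraries. Without rapamycin it was 14.1, 13.3 and 15.6 in KO libraries and 17.4, 16.5 and 19.8 in wild-type libraries. The median over the receptors was 61.6, 47.7 and 54.8 FPKM in treated KO libraries and 78.4, 83.8 and 79.5 FPKM in treated wild-type libraries. Without rapamycin it was 15.1, 13.6 and 13.7 FPKM in KO libraries and 14.9, 17.2 and 18.8 FPKM in wild-type libraries. With 3 receptors, each of these medians is the value of 1 gene. That gene was *ATG34* in all treated libraries and in untreated wild-type library 5, and *ATG32* in the other untreated libraries. So treated and untreated medians do not follow the same receptor throughout. The core held the largest rise in the wild type, that of *ATG8*, and also *ATG5* and *ATG10*, which did not pass the test, and no test was run between the classes.

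*ATG32*, the mitophagy receptor on the outer mitochondrial membrane, rose least of the 3 member receptors in the KO. It was at 37.1, 27.1 and 33.3 FPKM in treated KO libraries, against 15.1, 13.6 and 13.7 FPKM in untreated KO libraries. In the wild type it was at 44.6, 58.0 and 50.6 FPKM with rapamycin, against 14.9, 17.2 and 14.4 FPKM without. Untreated strains overlapped, while all treated KO libraries lay below all treated wild-type libraries. The log2 fold change with rapamycin was 1.14 in the KO (SE 0.136, adjusted p = 3.08e-05) and 1.66 in the wild type (SE 0.136, adjusted p = 1.14e-06). *ATG19*, the receptor of the cytoplasm-to-vacuole targeting (Cvt) pathway for aminopeptidase I, was at 132, 109 and 127 FPKM in treated KO libraries, against 48.6, 28.5 and 33.7 FPKM in untreated KO libraries. In the wild type *ATG19* was at 162, 194 and 179 FPKM with rapamycin, against 55.8, 67.6 and 68.0 FPKM without. Its ranges did not overlap between treatments, and it rose by 1.74 in the KO and 1.47 in the wild type on the log2 scale (SE 0.173 each). *ATG19* and *ATG34* are neighbours on chromosome XV, in the same orientation and 1774 bases apart.

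**Figure D2:**
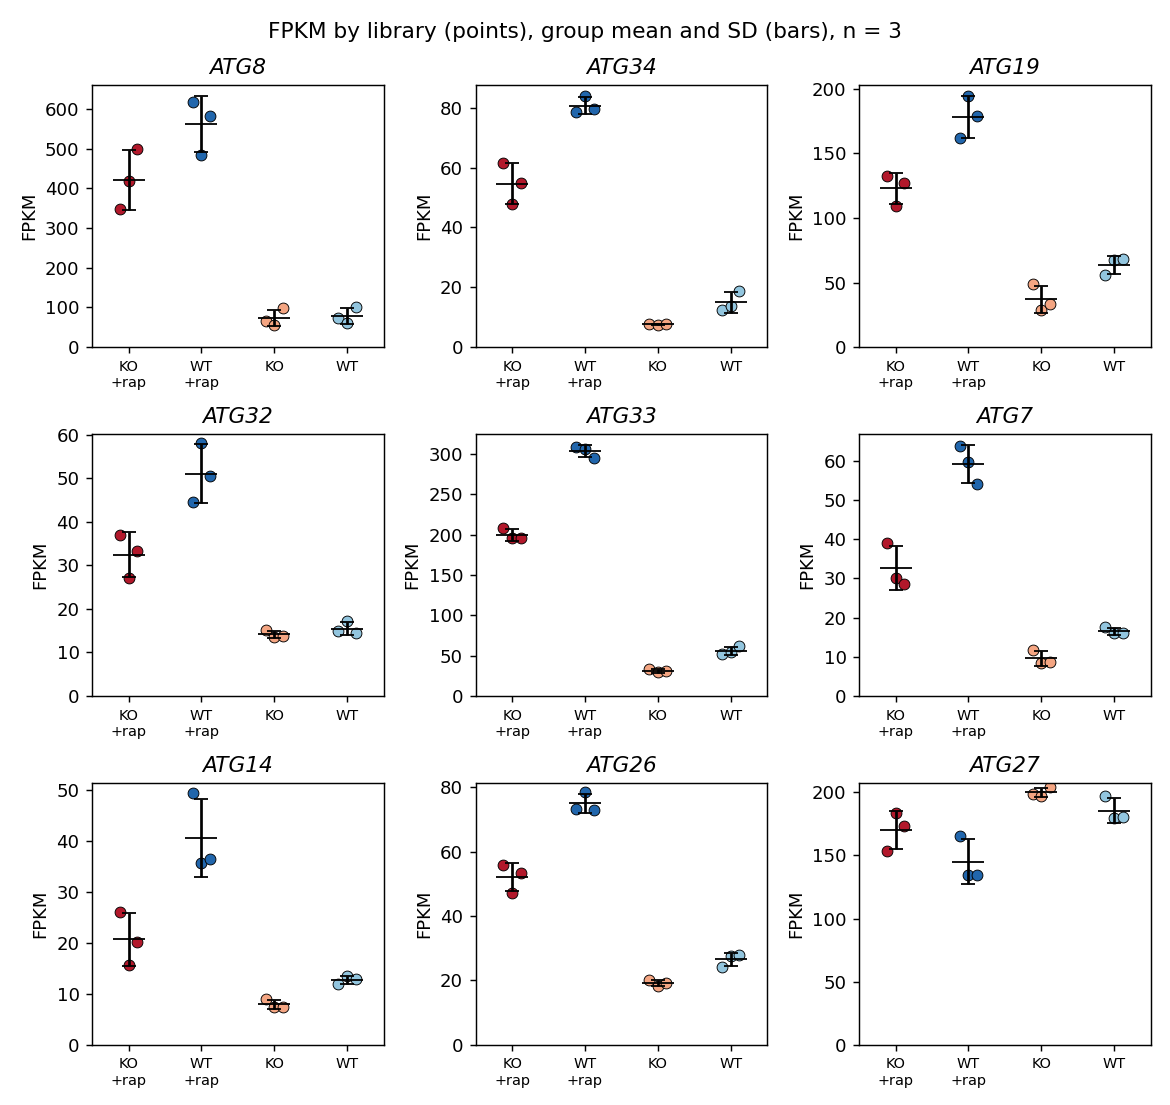
FPKM of 9 *ATG* genes is shown for each library (points) with the mean and SD of the 3 libraries (bars), in the order KO with rapamycin, wild type with rapamycin, KO and wild type without. *ATG8* overlaps between strains under rapamycin at 349 to 618 FPKM, *ATG33* does not at 195 to 208 in the KO against 295 to 309 in the wild type, and *ATG27* is highest without the drug.

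The remaining members are given by complex. All 4 members of the Atg1 kinase complex rose in both strains, the kinase gene *ATG1* by 0.73 in the KO and 1.39 in the wild type, and *ATG13* and *ATG17*, the regulator and the scaffold, by 0.71 to 0.97 across strains. Of the Atg9 vesicle genes, *ATG9*, which encodes the membrane-spanning lipid scramblase, rose by 1.46 in the KO and 1.63 in the wild type, and its trafficking partner *ATG23* by 0.70 in the KO and 0.81 in the wild type. *ATG14*, the subunit that directs the phosphatidylinositol 3-kinase to autophagy, rose by 1.25 in the KO and 1.58 in the wild type. The lipid transfer gene *ATG2* and the phosphoinositide-binding *ATG18* and *ATG21* rose by 0.53 to 1.14 across strains. Both vacuolar genes, the lipase *ATG15* and the amino acid exporter *ATG22*, rose by 1.21 to 1.48. Of the selective and accessory genes, *ATG11*, the scaffold of selective autophagy, the sorting nexin *ATG20* and the sterol glucosyltransferase gene *ATG26* rose by 0.98 to 1.46. The call of *ATG1* in the KO (limma adjusted p = 0.008) was kept in 9 of 22 alternative fits. Those of *ATG18* in the KO and *ATG13* in the wild type were kept in 14 each.

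In the conjugation system, *ATG3* and *ATG4* of the Atg8 branch rose in both strains, and so did *ATG16* of the Atg12 branch, described above. *ATG5* and *ATG10* of the Atg12 branch passed the test in neither strain. *ATG3*, the Atg8-conjugating enzyme, and *ATG4*, the Atg8 protease, rose by 0.99 to 1.24 in both strains. *ATG12* rose by 0.62 in the wild type (adjusted p = 0.000615) but had 0.34 in the KO (adjusted p = 0.0235). *ATG5*, the partner of Atg12, was at 70.0, 52.7 and 76.8 FPKM in treated KO libraries, against 60.3, 63.2 and 80.3 FPKM in untreated KO libraries, and at 47.9, 44.2 and 42.4 FPKM in treated wild-type libraries, against 56.9, 53.0 and 56.7 FPKM in untreated ones. Its treated and untreated ranges overlapped in the KO, and treated lay below untreated in the wild type, with a log2 fold change of -0.04 in the KO and -0.30 in the wild type (adjusted p = 0.843 and 0.0867 in the KO and the wild type). *ATG10*, the Atg12-conjugating enzyme and the lowest gene of the set under rapamycin, was at 7.73, 9.71 and 6.62 FPKM in treated KO libraries, against 7.94, 11.4 and 13.9 FPKM in untreated KO libraries, ranges that overlapped. In the wild type *ATG10* was at 7.52, 4.68 and 7.43 FPKM with rapamycin, against 12.7, 9.17 and 8.89 FPKM without, at 16 to 42 implied reads over the 12 libraries. *ATG27*, an Atg9 trafficking partner, stood as the third member with negative values in both strains. It was at 153, 183 and 174 FPKM in treated KO libraries, against 199, 197 and 204 FPKM in untreated KO libraries, and at 166, 135 and 135 FPKM in treated wild-type libraries, against 197, 179.6 and 180.1 FPKM in untreated ones. Treated lay below untreated in both strains, with a log2 fold change of -0.24 in the KO (adjusted p = 0.0764) and -0.36 in the wild type (adjusted p = 0.0117). With libraries 1 and 2, 3 and 4, and 5 and 6 of each strain as pairs, *ATG27* fell in the wild type (limma adjusted p = 0.00487) and was not called in the KO (adjusted p = 0.0305).

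Whether these last genes were called depended on how the libraries were scaled. As deposited, rapamycin shifted the median over all features by 0.34 in the KO and 0.29 in the wild type, and median-ratio scaling brought this shift to 0.00 in the KO and 0.01 in the wild type. Over all features, the calls as deposited were 2362 higher and 670 lower in the KO and 2334 higher and 1056 lower in the wild type. Median-ratio scaling gave 1288 higher and 1322 lower in the KO and 1569 higher and 1624 lower in the wild type. Of the members, 19 rose and 1 fell in the KO under median-ratio scaling, and 21 rose and 2 fell in the wild type. The gene that fell in the KO was *ATG27* (log2 fold change -0.59, adjusted p = 0.00132), and those that fell in the wild type were *ATG27* (-0.65, adjusted p = 0.000553) and *ATG5* (-0.59, adjusted p = 0.0042). Quantile normalization gave 19 members higher and 1 lower in the KO and 22 higher and 3 lower in the wild type. Over all features it gave 1323 higher and 1398 lower in the KO and 1723 higher and 1615 lower in the wild type. Under median-ratio scaling the calls of *ATG1*, *ATG13*, *ATG17*, *ATG18* and *ATG23* were lost in the KO, and those of *ATG12*, *ATG13*, *ATG17* and *ATG18* in the wild type. *ATG12* turned from 0.34 as deposited to -0.01 under median-ratio scaling and -0.04 under quantile normalization in the KO.

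**Figure D3:**
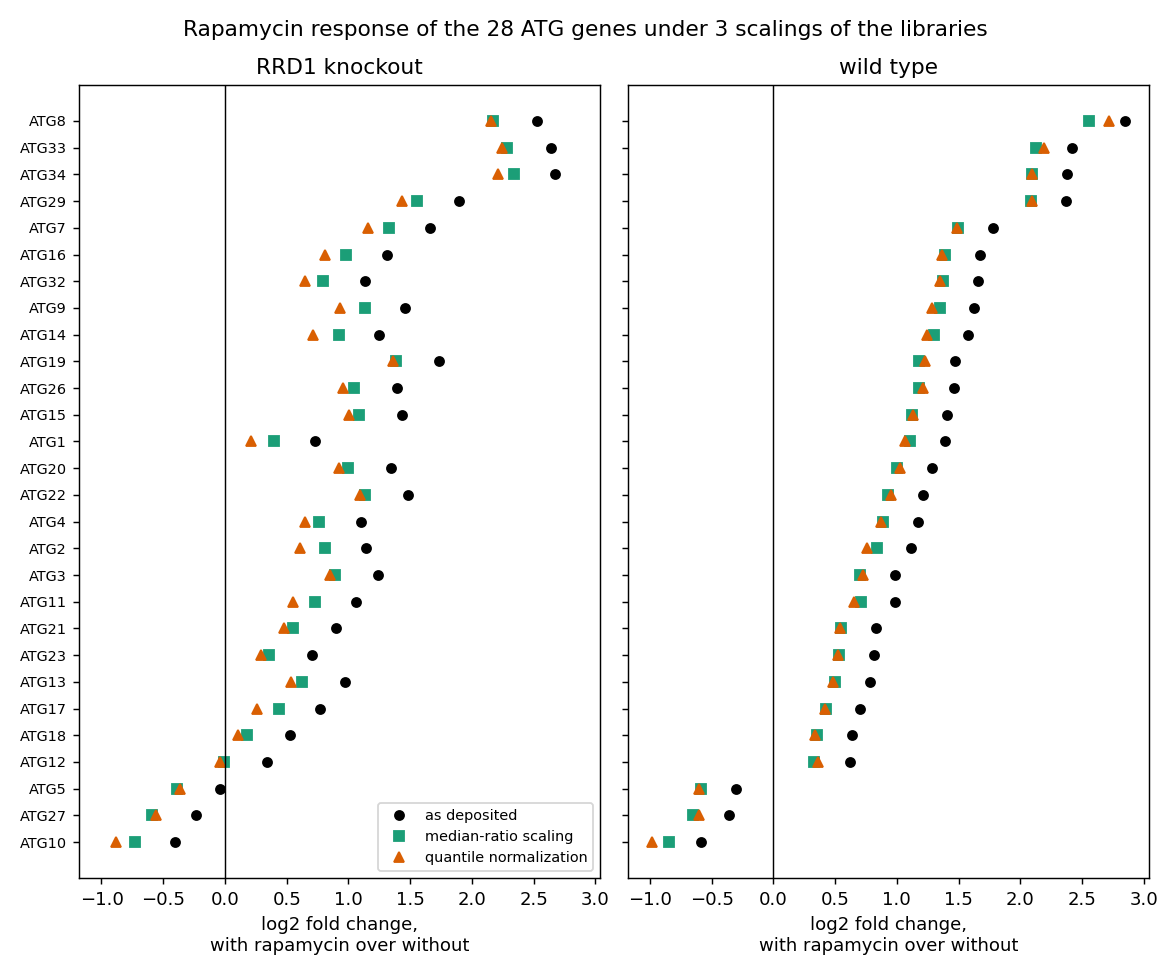
The log2 fold change with rapamycin of each of the 28 *ATG* genes is shown under 3 scalings of the libraries (black, as deposited; green, median-ratio; orange, quantile), in the KO (left) and in the wild type (right). Both rescalings shift every gene down, so that *ATG5*, *ATG27* and *ATG10* lie further below 0 while *ATG8*, *ATG33* and *ATG34* stay above 2.

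The *RRD1* KO was set against the wild type within each treatment to ask which *ATG* transcripts differ without *RRD1*. Under rapamycin, 5 of 28 members were lower in the KO and none higher, *ATG14*, *ATG7*, *ATG32*, *ATG33* and *ATG26*. Of all features, 5.79% were lower and 8.28% higher under rapamycin, so 14.1% were called either way, against 17.9% of members. Without rapamycin, 1 member, *ATG33*, was lower and none higher, against 0.554% of all features lower and 0.0308% higher. The median log2 fold change of the members was -0.31 under rapamycin and -0.25 without it, against -0.02 and -0.08 over all features with and without rapamycin, and 24 of 28 members were negative in each comparison. The untreated median of the members was -0.153 under median-ratio scaling (0.021 over all features), -0.123 under quantile normalization (0.011) and -0.164 without wild-type library 5 (-0.067). The 3 KO libraries all lay below the 3 wild-type libraries for 16 members under rapamycin, against 22.7% of all features, and for 9 members without it, against 18.9%.

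**Figure D4:**
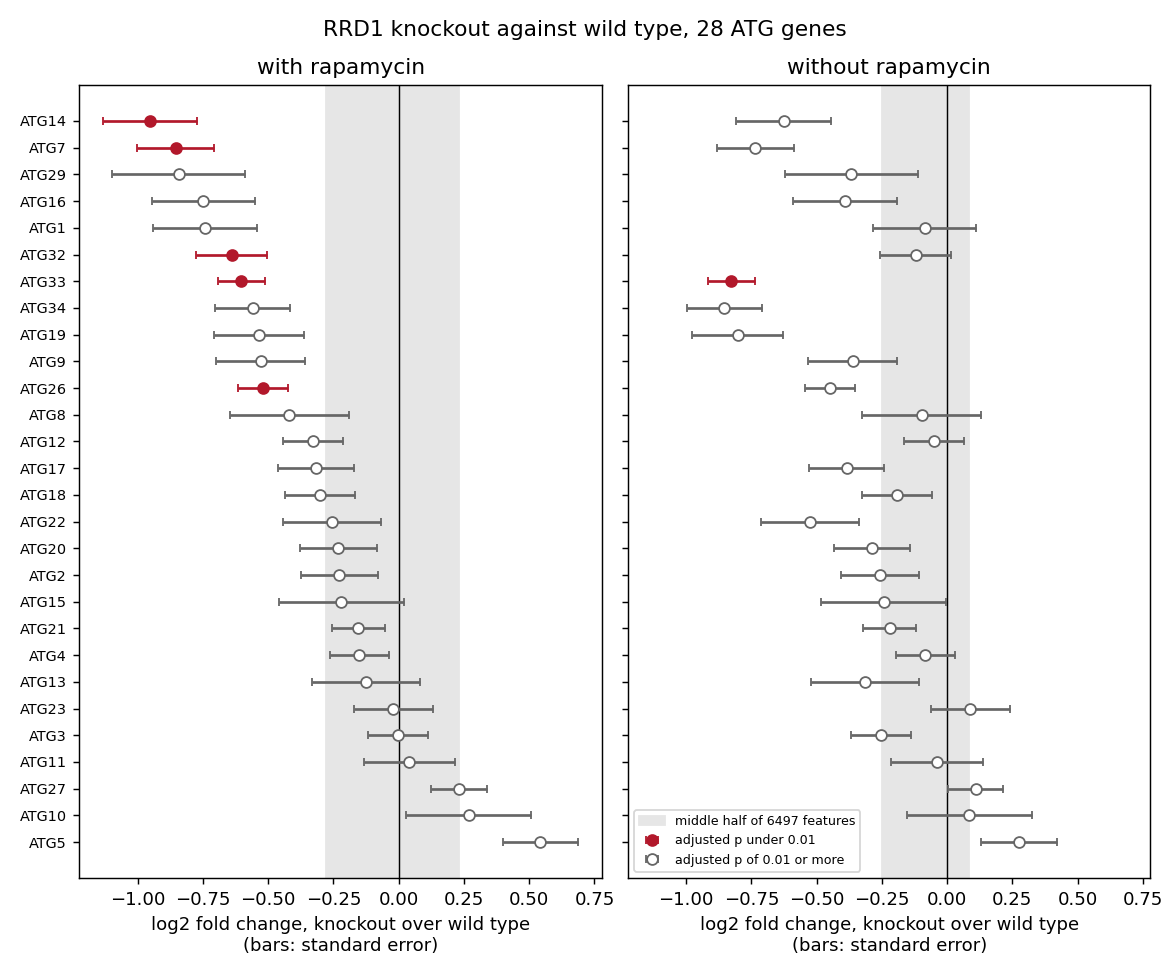
The log2 fold change of the *RRD1* KO over the wild type is shown for each of the 28 *ATG* genes with rapamycin (left) and without (right), with bars for the standard error, red for adjusted p under 0.01 and grey shading for the middle 50% of all features. The 5 red genes on the left lie between -0.95 and -0.52, *ATG33* is the 1 red gene on the right at -0.83, and *ATG5* lies furthest right in both.

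*ATG14* and *ATG7* had the largest differences under rapamycin. *ATG14* was at 26.1, 15.7 and 20.2 FPKM in treated KO libraries, against 49.3, 35.7 and 36.5 FPKM in treated wild-type libraries, with no overlap (log2 fold change -0.95, SE 0.181, adjusted p = 0.00309). Without rapamycin *ATG14* was at 8.99, 7.43 and 7.43 FPKM in KO libraries, against 11.95, 13.5 and 12.9 FPKM in wild-type libraries, again apart but short of the threshold (-0.63, adjusted p = 0.0869). *ATG7* was at 39.0, 30.0 and 28.7 FPKM in treated KO libraries, against 63.8, 59.8 and 54.1 FPKM in treated wild-type libraries (-0.85, SE 0.148, adjusted p = 0.00189). Untreated, *ATG7* was at 11.8, 8.33 and 8.72 FPKM in KO libraries, against 17.5, 16.0 and 16.0 FPKM in wild-type libraries (-0.73, adjusted p = 0.0285). Every KO library of *ATG7* lay below every wild-type library of the same treatment.

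*ATG33* was lower in the KO with and without rapamycin. With rapamycin it averaged 199 ± 7.19 FPKM in the KO and 303 ± 7.58 FPKM in the wild type (SD, n = 3 each). Without rapamycin it averaged 31.2 ± 2.21 FPKM in the KO and 56.1 ± 4.82 FPKM in the wild type (SD, n = 3 each). The log2 fold change was -0.60 with rapamycin (SE 0.0899, adjusted p = 0.000827) and -0.83 without (SE 0.0899, adjusted p = 0.00219). *ATG26* was at 55.8, 47.2 and 53.4 FPKM in treated KO libraries, against 73.5, 78.5 and 73.2 FPKM in treated wild-type libraries (-0.52, SE 0.0944, adjusted p = 0.00246). Without rapamycin *ATG26* was at 20.2, 18.2 and 19.3 FPKM in KO libraries, against 24.3, 27.7 and 27.8 FPKM in wild-type libraries (-0.45, adjusted p = 0.0309). The product of *ATG26* glucosylates ergosterol, and its known part in peroxisome turnover is from the yeast *Komagataella phaffii*.

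Among the receptors, *ATG32* was lower in the KO under rapamycin alone (-0.64, SE 0.136, adjusted p = 0.00563), with -0.12 without the drug (adjusted p = 0.677). *ATG34* and *ATG19* did not pass the threshold, at -0.56 (adjusted p = 0.0152) and -0.53 (adjusted p = 0.0429) with rapamycin and -0.85 (adjusted p = 0.0124) and -0.80 (adjusted p = 0.0337) without. For both *ATG34* and *ATG19* every KO library lay below every wild-type library in each treatment. *ATG32* lies on chromosome IX, the chromosome of *RRD1*, 17804 bases away with 6 genes between them. *ATG8* was not told apart between strains, at -0.42 with rapamycin (SE 0.228, adjusted p = 0.211) and -0.10 without (SE 0.228, adjusted p = 0.853). *ATG5* had the largest positive values, 0.54 with rapamycin (SE 0.145, adjusted p = 0.0186) and 0.28 without (adjusted p = 0.321), with every KO library above every wild-type library in each treatment.

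The difference between the 2 strain effects, which is also the difference between the 2 rapamycin responses, was tested as an interaction. No member was called by limma, against 0.262% of all features, and 2 members, *ATG32* and *ATG1*, had an unadjusted p under 0.05. The interaction of *ATG32* was -0.52 on the log2 scale (SE 0.192, unadjusted p = 0.0204, adjusted p = 0.186) and that of *ATG1* was -0.65 (SE 0.281, unadjusted p = 0.0399, adjusted p = 0.259). *ATG1* was at 27.9, 17.5 and 19.1 FPKM in treated KO libraries, against 30.8, 44.1 and 34.0 FPKM in treated wild-type libraries, and the untreated strains overlapped at 9.79 to 14.9 FPKM in the KO and 12.1 to 14.0 FPKM in the wild type. With neighbouring library numbers as pairs, 1.28% of all features and no member were called in the interaction, with an adjusted p of 0.0433 for *ATG32* and 0.041 for *ATG1*. So the call of *ATG32* under rapamycin alone is not shown to differ from its value without rapamycin. The strain effects and the rapamycin responses share libraries and are given side by side only.

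The libraries used set how many of the strain differences were called. Without KO libraries 1 and 2, 6 members were lower in the KO under rapamycin, the same 5 and *ATG1*, and 3 without it, *ATG33*, *ATG7* and *ATG19*. That fit called 11.5% of all features with rapamycin and 0.939% without it, counted in either direction. Without KO library 4, 1 member was lower (*ATG33*) and 1 higher (*ATG5*) under rapamycin, 7.14% of members against 6.51% of all features called. Without KO library 6 or wild-type library 4 the count was 3. Members were then at 10.7% in both fits, against 11.4% of features without KO library 6 and 10.3% without wild-type library 4. Without KO library 3 or wild-type library 5 no member was called in untreated cells, against 0.0154% and 0.077% of features. Fitted on the 6 libraries of each comparison alone, 1 member (*ATG33*) was called with rapamycin and none without. These fits called 3.26% of all features with rapamycin and 0.0154% without.

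Of the 9 genes that R64 names *ATG* but the table lists otherwise, 7 rose with rapamycin in the KO and 8 in the wild type, against 36.4% and 35.9% of all features in the KO and the wild type, and none fell. Under rapamycin 3 of the 9 were lower in the KO, against 5.79% of all features, and without rapamycin 1 was, against 0.554%. *ICY2*, named *ATG41* in R64 and tied to Atg9 trafficking, had the largest response, at 231, 318 and 528 FPKM in treated KO libraries, against 33.6, 36.6 and 40.5 FPKM in untreated KO libraries. Wild-type libraries had *ICY2* at 759, 744 and 811 FPKM with rapamycin, against 36.9, 35.1 and 55.3 FPKM without. The untreated strains overlapped and the treated ones did not, with a log2 fold change of -1.19 for the KO under rapamycin (SE 0.257, adjusted p = 0.00626). *CIS1*, named *ATG31*, the third subunit of the Atg17 scaffold, was lower in the KO under rapamycin (-0.70, adjusted p = 0.0014). *YBR139W*, named *ATG42*, a vacuolar carboxypeptidase, was lower in the KO with rapamycin (-0.67, adjusted p = 0.00587) and without it (-1.04, adjusted p = 0.00531). Without KO libraries 1 and 2, the calls of *ICY2* (adjusted p = 0.023) and *YBR139W* (adjusted p = 0.0284) under rapamycin were lost. The untreated call of *YBR139W* was kept in 10 of 22 alternatives, with an adjusted p of 0.0113 without the filter, 0.0142 under median-ratio scaling and 0.052 with only the libraries of the comparison. The other 6 of the 9 genes, among them the receptors of peroxisomes (*YJL185C*, *ATG36*), the nucleus (*YLR312C*, *ATG39*) and the endoplasmic reticulum (*YOR152C*, *ATG40*), were not called between strains. With rapamycin, *ATG36*, *ATG39* and *ATG40* had log2 fold changes of 1.34, 1.16 and 0.89 in the KO and 1.38, 1.48 and 0.56 in the wild type. That of *ATG39* in the KO was not called (limma adjusted p = 0.02485).

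Genes that work with the *ATG* proteins under other names were counted from lists, to be read against the 36.4% of all features that rose and 10.3% that fell in the KO and the 35.9% that rose and 16.3% that fell in the wild type. Of the 7 cargo and selective-factor genes, 6 rose with rapamycin in each strain. Under rapamycin 3 of the 7 were lower in the KO, against 5.79% of all features. *ICY2* and *YBR139W*, counted above, are 2 of the 7 and 2 of these 3, and *LAP4* is the other. *LAP4*, the gene of aminopeptidase I and the main cargo of Atg19, was at 184, 136 and 233 FPKM in treated KO libraries, against 519, 467 and 565 FPKM in treated wild-type libraries. Untreated, *LAP4* was at 28.7, 29.1 and 29.6 FPKM in KO libraries, against 58.4, 51.1 and 70.6 FPKM in wild-type libraries. The KO lay below the wild type in both treatments, with a log2 fold change of -1.51 with rapamycin (SE 0.178, adjusted p = 0.000263) and -1.01 without (adjusted p = 0.0152). *AMS1*, the alpha-mannosidase carried by Atg34 and Atg19, rose by 2.67 in the KO and 2.53 in the wild type. Of 8 kinase, sorting and trafficking partners, 5 rose in the KO and 6 in the wild type, with the largest changes in the wild type for *VPS34* (1.13), the catalytic subunit of the phosphatidylinositol 3-kinase, the sorting nexin *SNX4* (0.73) and *VPS30* (0.68), another subunit of that kinase. Of 7 genes for fusion with the vacuole, 4 rose in each strain, among them the SNARE gene *VTI1* (1.26 in the wild type), *MON1* (1.09) and the Rab gene *YPT7* (0.83). The 1 that fell in each strain was the syntaxin gene *VAM3*, named after its values were seen. None of the trafficking, fusion or regulator genes was called between strains.

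Of 10 transcription regulators of *ATG* genes, 3 rose and 1 fell in each strain, shares near or below those of all features. The one that fell was *UME6*, whose product represses *ATG8*, at 7.76, 8.33 and 7.99 FPKM in treated KO libraries, against 21.7, 21.1 and 21.3 FPKM in untreated KO libraries. In the wild type *UME6* was at 7.18, 8.78 and 9.84 FPKM with rapamycin, against 15.3, 23.0 and 24.9 FPKM without. Its treated libraries lay below all untreated ones, with log2 fold changes of -1.31 in the KO and -1.18 in the wild type. The GATA activators *GLN3* and *GAT1* rose in both strains, *GLN3* by 1.48 in the KO and 1.81 in the wild type and *GAT1* by 1.54 in the KO and 1.38 in the wild type.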

How the data were processed

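Gene expression was measured by RNA-seq in 12 libraries, 3 in each of 4 groups, from 250 ng of total RNA per sample, as single reads of 100 nt. The authors aligned the reads with TopHat and quantified them with Cufflinks, and the deposited values are FPKM, normalized for transcript length and library size. Software versions, genome build, annotation and use of strand are not given in the sources used here. The study's own test, Cuffdiff, needs aligned reads and was not run.

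FPKM was tested as log2(FPKM + 1), so fold changes of low genes are understated. Features with a mean of at least 1 FPKM were kept (6497 of 7126) and fitted with limma 3.58.1 in R 4.3.3, as 4 group means (8 residual degrees of freedom), with an empirical Bayes variance that followed the mean level. Adjusted p-values are Benjamini-Hochberg values over all tested features, and calls were made under 0.01. Contrasts were KO against wild type in each treatment, their difference, and rapamycin against none in each strain. The fit was tested on simulated data. In each strain, libraries with neighbouring numbers (1 and 2, 3 and 4, 5 and 6) deviated together from their group means (r across features 0.161 to 0.288 for the 6 pairs, -0.171 to -0.044 for the others). Deviations within a group cancel out for each feature, so positive values for some pairs force negative values among the others. The pairing of neighbouring numbers comes from the data, not the labels, and its fit is given where it changed a call. Alternatives changed the pseudocount, filter, scaling, variance model, threshold, libraries and block.

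Depth was derived from steps of 1 read in the FPKM of genes of at least 600 nt, assuming fragments of 200 nt (SD 80). For each library the trial depth was taken that put the largest share of the values used within 0.05 of a whole read. That share was 65.6% to 90.5% over 17 to 35 values per library. Since the depth was chosen by this share, it does not measure accuracy. Read numbers are approximate and no count test was run. *MFA1*, a short and very abundant transcript, took 6.8% to 16.5% of the FPKM sum in treated KO libraries and 20.6% to 27.5% in treated wild-type libraries, and 3.0% to 8.9% in untreated KO libraries and 7.8% to 11.1% in untreated wild-type libraries.

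Values per library are given for *ATG8*, *ATG32*, members called between strains or in the interaction, and the 6 largest called rises per strain. The gene lists name, besides genes called between strains, the 3 largest changes in the wild type. *ATG1*, *ATG5*, *ATG10* and *ATG27* were added after their values were seen. Members and lists were chosen with earlier results of these data known. Gene positions and sequences are from R64 and were joined by name.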

Additional observations from a re-analysis of the deposited data

How the results depend on the processing

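No member was called in the interaction under any alternative run. The number of members called between strains under rapamycin, 5 as reported, was 9 with quantile normalization and 1 with only the libraries of the comparison. It was 12 (11 lower, 1 higher) at a threshold of 0.05. When single libraries were left out it ranged from 2 (1 lower, 1 higher) to 7 (all lower). Of all features, 14.1% were called under rapamycin as reported, 17.9% with quantile normalization and 25.3% at 0.05. With only the libraries of the comparison, 3.26% of features and 3.57% of members were called. The fit with 2 members called 6.51% of features and that with 7 called 14%. In untreated cells the number, 1 as reported, was 0 with only the libraries of the comparison and 5 at 0.05. It ranged from 0 to 2 when single libraries were left out, and was 3 without KO libraries 1 and 2. The shares of all features were 0.585% as reported, 0.0154% with only the libraries of the comparison and 3.26% at 0.05. They were 0.939% without KO libraries 1 and 2, and single libraries left out gave 1 to 46 features. Same numbers did not pair KO with wild-type libraries, whose deviations from the group means correlated at -0.168 to 0.127. With the library number as a replicate block shared by the strains, 3 members were called with rapamycin (*ATG14*, *ATG7* and *ATG33*) and 0 without. With rapamycin these 3 were 10.7% of members, against 9.44% of all features, and without it 0.0462% of features were called. With neighbouring numbers of a strain as the replicate block, added after the data were seen, 24 members were called with rapamycin in the KO and 26 in the wild type, and beside *ATG27* no member's call changed. Of all features, 57.1% were called in the KO and 61.4% in the wild type in that fit. Leaving out single libraries gave 21 to 25 members called with rapamycin in the KO and 24 to 26 in the wild type. Over all features these fits called 2439 to 3114 in the KO and 2974 to 3404 in the wild type. *ATG33* under rapamycin was called in 22 of 22 alternatives, *ATG7* in 20, *ATG14* and *ATG26* in 18 and *ATG32* in 16. In untreated cells the difference of *ATG8* turned from -0.10 to 0.01 with median-ratio scaling and ranged from -0.316 to 0.096 when single libraries were left out (positive without wild-type library 5 or KO library 3), and that of *ATG32* from -0.12 to 0.04 with quantile normalization. These *ATG8* and *ATG32* differences were not called in any alternative, and the cause of the changes was not tested. Depth limits *ATG10* most, at 16 to 42 implied reads a library.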
